A study of Mus musculus with 16 samples.

Results

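Gene expression of RAW264.7 cells with a knockdown of CDC50A was compared with that of the parental line. The comparison covers the 4 libraries labelled CDC50A KD and the 4 labelled Parental, chosen by their labels, which are 8 of the 16 RNA sequencing libraries of the study. RAW264.7 is a mouse line with macrophage properties that was derived from an Abelson virus tumour. Cells grew in multi-well plates for a day before collection, and the labels name no phagocytic cargo or other treatment. The remaining libraries, 4 of ATP11A/C KD and 4 of ORP5/8 KD, were used only to ask where CDC50A KD differed from every other group. The library names of the knockdowns start with "sh", which the labels leave unexplained, Parental names no construct, and libraries of a non-targeting control were not analysed here. Effects of a construct as such and of the loss of CDC50A therefore cannot be told apart in the comparison with Parental. Whether the 4 replicates of a group came from separate cultures is not given in the labels, and p-values here reflect only the variation among libraries, which could be technical.

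CDC50A, encoded by Tmem30a, is the partner subunit of most P4-ATPases, the flippases that move phosphatidylserine and phosphatidylethanolamine from the outer to the cytoplasmic leaflet of membranes. Most of these flippases leave the endoplasmic reticulum only when bound to a CDC50 subunit, and cells that lack CDC50A are known to expose phosphatidylserine at the surface. In macrophages the cytoplasmic leaflet of the plasma membrane and phagosome recruits signalling proteins partly through phosphatidylserine, and exposed phosphatidylserine on dying cells is the signal by which macrophages recognise and engulf them.

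The CDC50A KD libraries held between 24020891 and 40668919 counts and the Parental libraries between 27885958 and 37353063. Of 55573 gene records, 13107 passed the filter on low counts and were tested. Levels are CPM, counts relative to the total of their library, after scaling between libraries by the trimmed mean of M values (TMM). They are compared between groups for 1 gene at a time and not between genes, since CPM takes no account of gene length. Log2 fold changes are CDC50A KD minus the other group, with the standard error (SE), from the quasi-likelihood test of edgeR over all 16 libraries, and adjusted p is by the Benjamini-Hochberg method over all genes tested. Values in CPM written with ± are the mean and SD of the 4 libraries of a group, and log2 fold changes written with ± carry the SE. A gene is called, and said to rise or fall, at an adjusted p under 0.05. The defining macrophage markers were present in both groups, with all 10 listed at 1 CPM or more. Their summed level was 13575 to 14303 CPM in Parental and 9185 to 9675 CPM in CDC50A KD, a difference that Lyz2 carries for the most part. Of 10 fibroblast markers, 9 had no count in either group. Epithelial and endothelial markers summed to 2.56 to 4.37 CPM in Parental and 0.429 to 0.917 CPM in CDC50A KD. Neutrophil and mast cell markers summed to at most 0.181 CPM in any library of either group, and dendritic cell markers to 1.69 to 2.55 CPM in Parental and 2.28 to 2.68 CPM in CDC50A KD. Lymphocyte markers summed to 97.0 to 104.3 CPM and 184.8 to 209.3 CPM, nearly all of it from Ighm, while the T cell genes Cd3d, Cd3e, Cd3g and Cd8a and the B cell gene Ms4a1 had no count. The share of counts from mitochondrially encoded genes was 1.19% ± 0.0744 (SD, n = 4) in Parental and 1.63% ± 0.151 (SD, n = 4) in CDC50A KD (exact permutation test, 2-sided p = 0.0286, the smallest that 4 against 4 libraries allow). The part of these markers and of this share in the results below was not tested.

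The targeted gene itself fell by a modest amount. Tmem30a (ENSMUSG00000032328.12, mm10 chromosome 9, 79768943 to 79793507, minus strand) stood at 165, 161, 165 and 155 CPM in Parental 1 to 4 and at 119.8, 134, 126 and 128 CPM in CDC50A KD 1 to 4. The groups did not overlap, and CDC50A KD averaged 78.6% of Parental (log2 fold change -0.35 ± 0.0612, adjusted p = 7.95e-05). The test did not separate the level in CDC50A KD from that in ORP5/8 KD (130.5 ± 10.4 CPM, adjusted p = 0.6) or ATP11A/C KD (142 ± 13.1 CPM, adjusted p = 0.0566), so Tmem30a gives no check that tells the libraries labelled CDC50A KD from those of the other knockdowns. The paralogues of CDC50A, Tmem30b and Tmem30c, had no count in either group. Among the P4-ATPase flippases and their subunits, 5 of the 10 tested genes fell and none rose. Atp11a, a plasma membrane flippase, was 58.7 to 63.0 CPM in Parental and 41.3 to 44.7 CPM in CDC50A KD (log2 fold change -0.51 ± 0.0420, adjusted p = 2.89e-09). Falls were also called in Atp8b4 (-0.31), Atp8a1 (-0.18) and the low gene Atp9a (0.542 ± 0.0915 and 0.247 ± 0.105 CPM, -1.10). Osbpl8, which encodes the lipid transfer protein ORP8, was 333, 335, 346 and 335 CPM in Parental 1 to 4 and 120.2, 118, 117 and 110.0 CPM in CDC50A KD 1 to 4 and thus fell further than Tmem30a did (log2 fold change -1.54 ± 0.0559, adjusted p = 6.99e-15), although the label names another gene. It was at 127 ± 8.99 CPM in ATP11A/C KD and 99.1 ± 8.17 CPM in ORP5/8 KD, so the means of all 3 knockdowns lay below that of Parental.

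Of the 13107 genes tested, 6605 (50.4%) were called between CDC50A KD and Parental, 3189 of them higher (24.3%) and 3416 lower (26.1%). With 1 gene in 2 called, a call alone says little, and the sizes were mostly small: 4920 of the 6605 called genes changed by under 1.5-fold. A change of at least 2-fold was called for 211 genes that rose (1.61%) and 629 that fell (4.80%), and one of at least 4-fold for 69 and 158. Among the 11646 genes that reached 1 CPM in 4 libraries, 118 rose at least 2-fold. The median log2 fold change over all genes tested was -0.0098. Libraries did not overlap between the groups for 6295 genes (48.0%). Counts of called members in the gene lists below stand beside these shares over all genes, 24.3% higher and 26.1% lower.

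**Figure D1:**
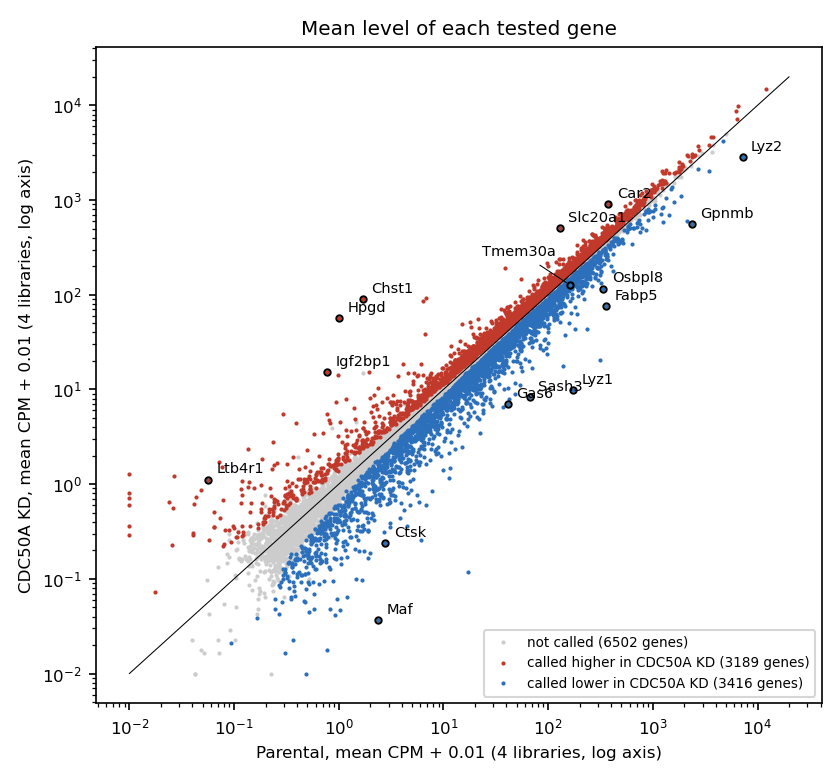
Mean level of every tested gene in Parental (horizontal) and CDC50A KD (vertical), each over 4 libraries and on log axes of CPM + 0.01; the line marks equal levels. The 3189 genes called higher (red) hug the line except for a sparse cloud such as Hpgd and Chst1, and the 3416 called lower (blue) spread further from it.

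The rises given first are of protein-coding genes that reached 10 CPM in CDC50A KD and 10 counts over Parental. The largest of these were in genes close to silent in Parental. Oosp2, outside these limits, rose further, with a log2 fold change of at least 8.49. Hpgd (ENSMUSG00000031613.9, mm10 chromosome 8, 56294585 to 56321043, plus strand), the enzyme that starts the breakdown of prostaglandins, was 1.2, 0.903, 0.974 and 0.934 CPM in Parental 1 to 4 and 55.6, 59.8, 52.0 and 58.4 CPM in CDC50A KD 1 to 4. All 4 knockdown libraries thus stood far above all 4 Parental ones, by 56.3-fold in the means (log2 fold change 5.81 ± 0.115, adjusted p = 3.10e-19). Chst1 (ENSMUSG00000027221.5, mm10 chromosome 2, 92599707 to 92615250, plus strand), a Golgi sulfotransferase that acts on keratan sulfate, went from 1.754, 1.72, 1.66 and 1.63 to 82.8, 85.7, 86.1 and 104 CPM (53.1-fold, log2 fold change 5.73 ± 0.116, adjusted p = 3.10e-19). Trp53i11, a gene named for its induction by p53, went from 5.94, 7.20, 6.38 and 5.97 to 83.2, 84.7, 85.2 and 87.7 CPM (log2 fold change 3.74 ± 0.0769). Igf2bp1 and Igf2bp3 encode RNA-binding proteins that are known mainly from embryonic and tumour cells. Igf2bp1 was 0.862, 0.657, 0.361 and 1.18 CPM in Parental and 15.7, 15.1, 14.8 and 14.8 CPM in CDC50A KD (log2 fold change 4.28 ± 0.166), and Igf2bp3 rose from 1.92 ± 0.112 to 15.4 ± 0.758 CPM (2.996 ± 0.0822). The third family member did not follow, as Igf2bp2 fell from 32.8 ± 1.58 to 21.5 ± 0.365 CPM (-0.61 ± 0.0552, adjusted p = 1.15e-08). Ranbp3l, a member of the family of Ran-binding proteins, rose from 6.87 ± 0.763 to 92.4 ± 7.53 CPM (3.75 ± 0.0856).

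Further down the order came transporters, a transcription factor and signalling genes. Slc20a1, a sodium-coupled phosphate importer, was already well expressed and rose from 132, 126, 129 and 127 CPM in Parental 1 to 4 to 500.4, 495, 515 and 520.1 CPM in CDC50A KD 1 to 4 (log2 fold change 1.98 ± 0.0403, adjusted p = 3.10e-19). Its relative Slc20a2 had 36.4 ± 2.34 and 35.0 ± 2.12 CPM with no call, and the phosphate exporter Xpr1 fell from 96.1 ± 2.90 to 76.1 ± 2.15 CPM (-0.34, adjusted p = 1.30e-06). Runx3, a transcription factor of lymphoid and myeloid cells, rose from 3.69 ± 0.935 to 13.9 ± 0.285 CPM (1.91 ± 0.127). Ltb, which encodes lymphotoxin beta, rose from 21.6 ± 1.63 to 55.6 ± 3.2 CPM (1.37 ± 0.0691), and Ctse, an aspartic protease of endosomes, from 17.7 ± 1.14 to 51.0 ± 3.21 CPM (1.52 ± 0.0616). The sodium-proton exchanger of endosomes Slc9a9 (2.15), Dmwd (1.63), the mTOR complex component Prr5 (1.48) and the kynurenine aminotransferase Kyat3 (1.31) complete the nuclear-encoded protein-coding genes with the largest rises among those that reached 10 CPM. Car2, the cytosolic carbonic anhydrase, was among the abundant genes with a clear rise, from 382, 377, 364 and 381 to 885, 893, 905 and 929.7 CPM (1.26 ± 0.0348, adjusted p = 4.70e-17).

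Some rises began from almost no counts. Stc1, which encodes the secreted glycoprotein stanniocalcin, had no count in any Parental library and 0.566, 1.05, 0.643 and 0.892 CPM in CDC50A KD 1 to 4 (102 counts), at least 34.1-fold higher when Parental is given a floor of 3 counts over the group, which covers counting error only. P2ry12, a purine receptor typical of microglia, was 0.185 to 0.392 CPM in Parental and 4.81 to 6.48 CPM in CDC50A KD (log2 fold change 4.29 ± 0.224). Ltb4r1, a receptor for the chemoattractant leukotriene B4, had 6 counts over the 4 Parental libraries and 146 over the 4 of CDC50A KD, or 0.0274 to 0.0615 against 0.927 to 1.27 CPM (4.47 ± 0.495, adjusted p = 2.40e-07). Its level in the other knockdowns stayed near that of Parental, at 0.0772 CPM in ATP11A/C KD and 0.0792 CPM in ORP5/8 KD (adjusted p = 5.99e-06 and 3.18e-07 against CDC50A KD).

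**Figure D2:**
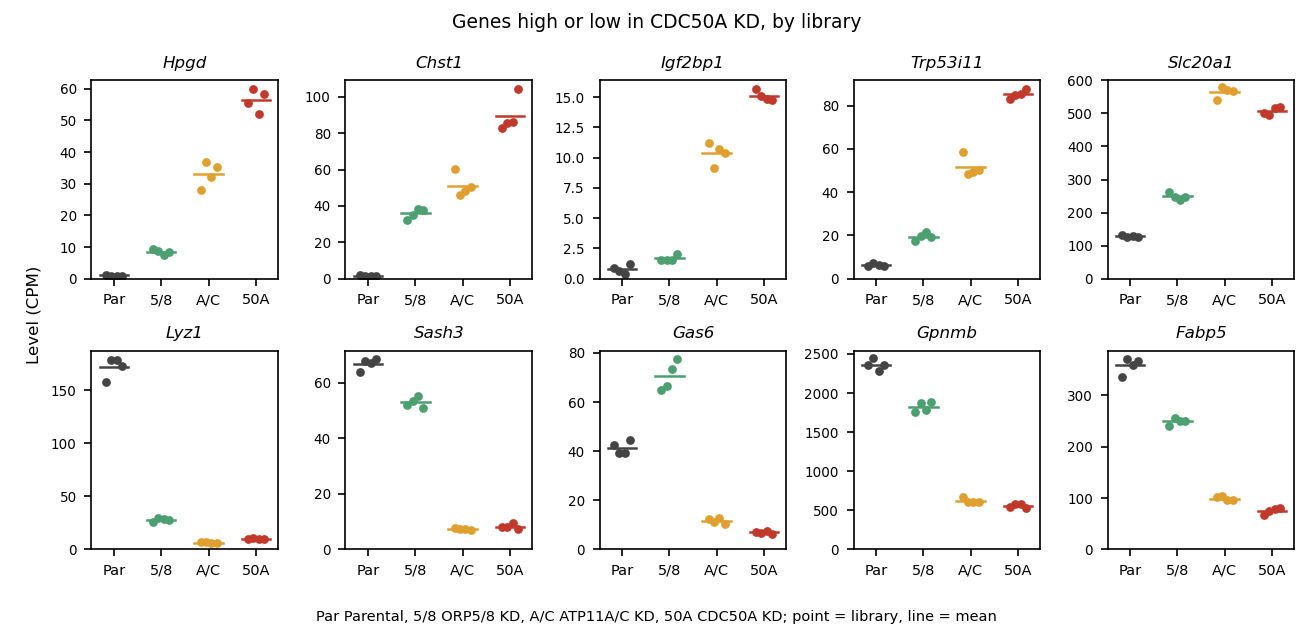
Level in CPM of 10 genes in each of the 16 libraries (points) with the group mean (line), every axis starting at 0. Hpgd and Chst1 are near 1 and 2 CPM in Parental and highest in CDC50A KD, Lyz1 stays under 11 CPM in all CDC50A KD libraries, and Gas6 is low in CDC50A KD but higher than Parental in ORP5/8 KD.

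The 2 mouse lysozyme genes had the steepest fall in fold among protein-coding genes that reached 10 CPM (Lyz1) and the largest fall in CPM (Lyz2). Lyz1 (ENSMUSG00000069515.6, mm10 chromosome 10, 117287797 to 117292868, minus strand) was 158, 179, 179 and 173 CPM in Parental 1 to 4 and 9.45, 10.6, 9.80 and 9.58 CPM in CDC50A KD 1 to 4, 5.73% of Parental by the means (log2 fold change -4.13 ± 0.0595, adjusted p = 1.13e-21). Lyz2 (ENSMUSG00000069516.8, mm10 chromosome 10, 117277331 to 117282321, minus strand), the lysozyme of macrophages, went from 6827, 7449.8, 7447 and 7105 to 2846, 2801, 2943 and 2843 CPM (-1.33 ± 0.0433, adjusted p = 8.87e-16). The genes are neighbours of closely related sequence, so reads could be split between them in the authors' counting. The 150 bases before each start site (RefSeq, GRCm38.p6, minus strand, chr10:117292869-117293018 and chr10:117282273-117282422) are shown as the more alike part of their promoters. Aligned at the start site without gaps, 129 of these 150 bases (86%) are identical, and capitals mark the bases that differ. Over the 250 bases before the start site, 152 (60.8%) are identical.
Lyz1: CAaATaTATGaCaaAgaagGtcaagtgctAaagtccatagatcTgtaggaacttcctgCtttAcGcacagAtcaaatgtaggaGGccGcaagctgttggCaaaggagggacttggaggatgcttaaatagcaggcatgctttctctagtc
Lyz2: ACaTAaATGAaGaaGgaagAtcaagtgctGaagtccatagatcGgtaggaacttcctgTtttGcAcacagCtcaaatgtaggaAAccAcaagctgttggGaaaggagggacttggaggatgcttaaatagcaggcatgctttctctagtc
Beside this shared stretch, the log2 fold changes of the genes were -4.13 and -1.33.

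The other genes with the steepest falls encode receptors, adhesion proteins and secreted factors. Gas6 (ENSMUSG00000031451.6, mm10 chromosome 8, 13465374 to 13494490, minus strand), the secreted bridge between phosphatidylserine and the receptors Tyro3, Axl and Mertk, was 42.4, 39.3, 39.4 and 44.4 CPM in Parental 1 to 4 and 7.26, 6.65, 7.32 and 6.47 CPM in CDC50A KD 1 to 4 (-2.58 ± 0.0792, adjusted p = 3.58e-16). Sash3, an adaptor protein of immune cells, fell from 63.9, 67.9, 67.1 and 68.4 to 7.95, 8.01, 9.65 and 7.31 CPM (-3.02 ± 0.0667, adjusted p = 9.24e-19). Slfn4, a Schlafen gene of the myeloid lineage, varied within Parental from 176 to 410.0 CPM and was 14.7 to 31.6 CPM in CDC50A KD with no overlap (-3.94 ± 0.335). Lower levels were also called in the hyaluronan receptor Layn (-2.97), the adhesion protein Opcml (-2.72), Plxdc1 (-2.62), the spectrin Sptbn1 (-2.48), the VEGF receptor Flt1 (-2.41) and the enolase Eno2 (-2.43). Among transcription factors of macrophages, Maf went from 303 counts over the 4 Parental libraries to 4 over CDC50A KD, or from 2.37 ± 0.826 to 0.0270 ± 0.0365 CPM (-6.15 ± 0.570), whereas Spi1, which encodes PU.1, was 250.2 ± 19.2 and 271 ± 15.8 CPM with no call (adjusted p = 0.132).

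In absolute terms the losses fell on abundant macrophage products. Gpnmb, a glycoprotein of lysosomes and the cell surface, went from 2361, 2444, 2282 and 2363 CPM in Parental 1 to 4 to 540.4, 579, 582 and 527 CPM in CDC50A KD 1 to 4 (-2.08 ± 0.0453, adjusted p = 8.19e-19). Spp1, or osteopontin, went from 2135 ± 79.6 to 605 ± 63.0 CPM (-1.82 ± 0.0673), and Mpeg1, the pore-forming perforin-2 of macrophages, from 1418 ± 40.3 to 692 ± 21.3 CPM (-1.04 ± 0.0422). The cathepsins Ctsb and Ctsd fell by 0.78 and 0.75 on the log2 scale. The 6 largest gains in CPM were Eef1a1 (0.29), mt-Co1 (0.48), Eef2 (0.36), Rpsa (0.48), Gapdh (0.28) and Pkm (0.18), which serve translation, respiration and glycolysis and are small in fold. The Pkm call (adjusted p = 0.0236) was lost without CDC50A KD 3 (adjusted p = 0.0695), CDC50A KD 4 (0.11) or Parental 3 (0.0709). Of 36 tested genes on a list of macrophage identity, 20 fell and 9 rose, with a median log2 fold change of -0.28. Siglec1, the sialoadhesin of macrophages, fell from 98.3 ± 1.57 to 23.9 ± 2.32 CPM (-2.04 ± 0.0679), while Csf1r (0.18), Cx3cr1 (0.44) and Adgre1, or F4/80 (0.50), rose. In these bulk libraries a smaller number of cells of one state and less RNA in each cell cannot be told apart.

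Interferon-stimulated genes fell with few exceptions. Of 79 tested members, 77 fell and 1 rose, with a median of -0.74 beside -0.0098 over all genes, and libraries did not overlap for 75 of them (48.0% over all genes). The fall reached 2-fold for 30 members. Ifit3, a tetratricopeptide protein that restrains viral replication, was 46.9, 49.4, 48.1 and 47.3 CPM in Parental 1 to 4 and 9.68, 11.6, 10.7 and 14.8 CPM in CDC50A KD 1 to 4 (-2.03 ± 0.114, adjusted p = 6.35e-12). Rsad2, which encodes the antiviral enzyme viperin, went from 104, 101, 98.4 and 96.5 to 24.1, 34.1, 29.5 and 35.1 CPM (-1.71 ± 0.0795, adjusted p = 3.88e-13). In both genes CDC50A KD 1 was the lowest and CDC50A KD 4 the highest of the knockdown libraries, and all 4 lay below Parental. Ifit3 has a near-identical neighbour, Ifit3b, with which it may share reads. Isg15, a ubiquitin-like modifier, went from 118 ± 5.32 to 56.5 ± 6.84 CPM (-1.06 ± 0.0854), the transcription factor Stat2 from 122 ± 3.59 to 54.9 ± 5.48 CPM (-1.15 ± 0.0538), and Irf7, the factor that amplifies interferon production, from 632 ± 18.3 to 347 ± 31.1 CPM (-0.86 ± 0.0615). Oasl2 (-1.38), Ifit1 (-1.70) and Ifit2 (-1.77) fell as well. The exceptions were Ifi27, which rose from 28.9 ± 2.48 to 50.4 ± 4.22 CPM (0.80 ± 0.0597, adjusted p = 5.88e-10), and Slfn8, at 52.4 ± 0.808 and 51.0 ± 3.98 CPM with no call (adjusted p = 0.514).

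The upstream components on a separate list moved far less. Of its 23 tested genes for interferon receptors, kinases, sensors and regulatory factors, 10 fell and 4 rose, with a median of -0.08. Some sensors and factors that fell further, among them Ddx58 (-0.62), Ifih1 (-0.80) and Stat2 (-1.15), were counted with the interferon-stimulated genes. The contrast between the lists thus depends in part on where such genes were placed. The receptor chain Ifnar1 fell from 78.8 ± 2.38 to 61.5 ± 1.198 CPM (-0.36 ± 0.0392) while Ifnar2 rose from 70.5 ± 4.23 to 87.0 ± 5.03 CPM (0.30 ± 0.0520). Tmem173, which encodes the DNA-sensing adaptor STING, rose from 40.2 ± 1.85 to 71.9 ± 6.34 CPM (0.84 ± 0.0546, adjusted p = 6.88e-11), and the kinases Ikbke (-0.65) and Tbk1 (-0.65), which act downstream of such sensors, fell.

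The promoters of 4 of these genes are shown because many interferon-stimulated genes carry a common element, the interferon-stimulated response element. Each line gives the 250 bases before the start site, 5′ to 3′ on the gene's strand, from RefSeq (GRCm38.p6), with matches to GAAANNGAA or its reverse complement TTCNNTTTC in capitals. The windows are chr4:156200819-156201068 (minus strand) for Isg15, chr19:34583279-34583528 (plus) for Ifit3, chr19:34640639-34640888 (plus) for Ifit1 and chr12:26456453-26456702 (minus) for Rsad2.
Isg15: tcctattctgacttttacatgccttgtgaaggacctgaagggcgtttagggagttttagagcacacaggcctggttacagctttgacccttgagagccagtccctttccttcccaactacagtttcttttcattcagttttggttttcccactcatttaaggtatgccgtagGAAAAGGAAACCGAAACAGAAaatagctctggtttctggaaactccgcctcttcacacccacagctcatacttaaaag
Ifit3: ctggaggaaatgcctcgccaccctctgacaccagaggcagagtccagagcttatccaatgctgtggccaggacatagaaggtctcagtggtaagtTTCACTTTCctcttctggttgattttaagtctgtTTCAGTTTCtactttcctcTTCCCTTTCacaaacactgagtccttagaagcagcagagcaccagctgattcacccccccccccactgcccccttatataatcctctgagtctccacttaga
Ifit1: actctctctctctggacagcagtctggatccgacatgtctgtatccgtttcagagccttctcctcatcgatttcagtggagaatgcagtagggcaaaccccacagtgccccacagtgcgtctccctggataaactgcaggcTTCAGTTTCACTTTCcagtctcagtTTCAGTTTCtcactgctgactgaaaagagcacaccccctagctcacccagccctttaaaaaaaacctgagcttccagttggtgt
Rsad2: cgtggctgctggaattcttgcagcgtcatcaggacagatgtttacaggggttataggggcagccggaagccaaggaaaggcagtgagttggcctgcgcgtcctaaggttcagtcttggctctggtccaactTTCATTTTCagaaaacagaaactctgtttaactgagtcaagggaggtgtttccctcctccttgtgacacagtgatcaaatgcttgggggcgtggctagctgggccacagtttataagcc
Isg15, Ifit3 and Ifit1 hold 3 matches each, which overlap in Isg15 and in part in Ifit1, and Rsad2 holds 1. Over windows of 300 bases (250 before and 50 after the start site), a match was found in 41 of the 64 interferon-stimulated genes with a window (64.1%), against 826 of all 9279 tested genes with one (8.90%). A match describes the letters only and is not evidence of binding.

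The fall in interferon-stimulated genes was smaller in CDC50A KD than in the other knockdowns. Measured directly, 58 of the 79 members were higher in CDC50A KD than in ATP11A/C KD and 1 was lower (13.4% and 12.7% of all tested genes), and 77 were higher and 2 lower than in ORP5/8 KD (29.4% and 27.5% of all tested genes). The medians of these differences were 0.37 and 1.51. Isg15 thus stood at 118 CPM in Parental, 56.5 in CDC50A KD, 33.0 in ATP11A/C KD and 5.97 in ORP5/8 KD, with each step from CDC50A KD called (log2 fold change 0.78, adjusted p = 5.03e-06, against ATP11A/C KD, and 3.24, adjusted p = 5.07e-16, against ORP5/8 KD). Of 24 tested genes of class I antigen presentation, 18 fell and 3 rose against Parental (median -0.29), 19 were higher and 1 lower than in ATP11A/C KD, and 22 were higher and none lower than in ORP5/8 KD. The class I transactivator Nlrc5 fell from 51.1 ± 3.93 to 23.9 ± 1.51 CPM (-1.10 ± 0.0667), and the heavy chain gene H2-K1 from 191 ± 6.17 to 155 ± 8.41 CPM (-0.30 ± 0.0535). The 3 that rose, Pdia3 (0.44), Calr (0.36) and Canx (0.14), are general chaperones of the endoplasmic reticulum. The call of Canx was lost without CDC50A KD 1 (adjusted p = 0.0778), CDC50A KD 2 (0.216) or Parental 4 (0.0755).

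**Figure D3:**
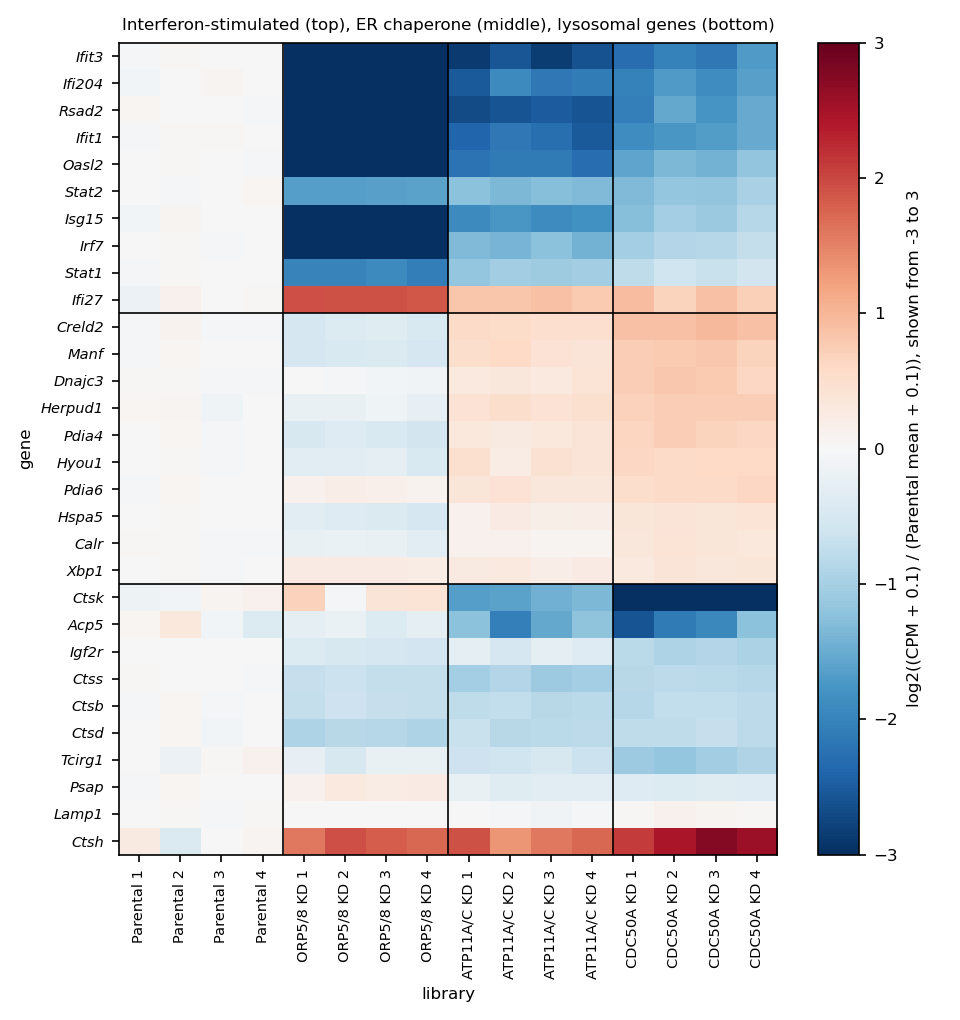
Level of 10 interferon-stimulated, 10 endoplasmic reticulum chaperone and 10 lysosomal genes in each of the 16 libraries, as log2 of (CPM + 0.1) over (Parental mean + 0.1), with the colour scale ending at -3 and 3. Within CDC50A KD the interferon-stimulated genes are paler than in both other knockdowns, the chaperones are red, and the lysosomal genes are blue except Lamp1, which is near 0, and Ctsh, which is red.

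Inflammatory genes and receptors for microbial and opsonised cargo fell with them. Of 36 tested cytokine and NF-kB target genes, 24 fell and 2 rose (median -0.45), and 11 fell at least 2-fold. Acod1, the enzyme that makes itaconate, was 49.0, 46.8, 48.5 and 49.0 CPM in Parental 1 to 4 and 7.85, 9.46, 7.505 and 10.6 CPM in CDC50A KD 1 to 4 (-2.45 ± 0.0933, adjusted p = 1.45e-14). Il1rn, the interleukin-1 receptor antagonist, went from 54.6 ± 1.31 to 17.4 ± 1.71 CPM (-1.66 ± 0.0773), the chemokine Ccl5 from 11.2 ± 0.849 to 2.10 ± 0.259 CPM (-2.42 ± 0.133) and the nitric oxide synthase Nos2 from 7.49 ± 0.432 to 1.78 ± 0.246 CPM (-2.07 ± 0.130). Tnf fell less, from 65.7 ± 3.70 to 51.8 ± 3.69 CPM (-0.34 ± 0.0722), and Nfkb1 rose (0.18). Members called higher numbered 4 without CDC50A KD 1 or without Parental 2. Of 35 tested opsonin and pattern receptors, 25 fell and 2 rose (median -0.50). The scavenger receptor Msr1 went from 322 ± 8.08 to 134 ± 8.69 CPM (-1.27 ± 0.0618), and the integrin chain Itgb2 of complement receptors from 265 ± 11.3 to 176 ± 10.2 CPM (-0.59 ± 0.0481). The complement peptide receptor C3ar1 (-0.98) and the C-type lectins Clec4e (-1.03) and Clec4d (-0.81) fell, whereas Tlr9 (0.38) and Tlr1 (0.42) were the members that rose. A match to the NF-kB motif GGGANNTTC or its reverse complement lay in the promoter window of 4 of 23 inflammatory genes (17.4%) and of 416 of all 9279 (4.48%). Other motifs were as frequent in these windows or more so. The AP-1 motif TGANTCA lay in 6 of the 23 (26.1%) and 557 of all 9279 (6.00%), and the E2F motif TTTNNCGC in 4 (17.4%) and 958 (10.3%).

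Inhibitory receptors of myeloid cells, a list put together after their values had been seen, included some of the steepest falls. Of 14 tested, 12 fell and 2 rose, with a median of -1.92. Lilrb4a was 252, 164, 252 and 271 CPM in Parental 1 to 4 and 34.0, 53.1, 38.6 and 47.3 CPM in CDC50A KD 1 to 4 (-2.45 ± 0.173), and its near-identical neighbour Lilr4b, with which it may share reads, was 133, 113, 149 and 163 and 15.9, 16.5, 18.8 and 20.2 CPM (-2.96 ± 0.155). Parental 2 was the lowest Parental library for both genes, and still above every library of CDC50A KD. Cd200r4, from the family of receptors related to that for CD200, went from 11.2 ± 0.979 to 1.15 ± 0.204 CPM (-3.30 ± 0.206), and the paired receptor gene Pirb from 8.39 ± 0.556 to 2.07 ± 0.568 CPM (-2.04 ± 0.134).

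Lysosomal genes fell broadly and by modest amounts. Of 60 tested, 42 fell and 4 rose (median -0.26), and 14 were not called. Ctsb, a cysteine protease, was 3380.2, 3591, 3404 and 3467 CPM in Parental 1 to 4 and 1928, 2068, 2080.3 and 2004 CPM in CDC50A KD 1 to 4 (-0.78 ± 0.0376, adjusted p = 7.10e-13). The aspartic protease Ctsd went from 1842 ± 67.6 to 1097 ± 35.5 CPM (-0.75 ± 0.0438), the protease Ctss from 855 ± 15.7 to 483 ± 9.62 CPM (-0.82 ± 0.0408), and the sorting receptor Igf2r, which brings enzymes to lysosomes, from 283 ± 2.38 to 153 ± 6.96 CPM (-0.89 ± 0.0492). The steepest falls were in low genes that osteoclasts use to resorb bone: Ctsk went from 2.78 ± 0.262 to 0.230 ± 0.0516 CPM (-3.60 ± 0.226), Atp6v0d2 from 5.62 ± 0.311 to 0.759 ± 0.275 CPM (-2.85 ± 0.195). Over the list of osteoclast genes, 12 of 19 fell and 6 rose (median -0.55), among them Tcirg1, a subunit of the proton pump (-1.04 ± 0.0661), and against the direction of the others Car2, described above. Ctsh rose from 14 to 143 counts summed over the 4 libraries of each group (3.28 ± 0.326), and the sorting receptor Sort1 from 11.53 ± 0.969 to 23.4 ± 1.09 CPM (1.02 ± 0.0637). The membrane protein Lamp1 had 913 ± 21.9 and 957 ± 30.8 CPM with no call (adjusted p = 0.126). The E-box CACGTG, whose sequence is its own reverse complement, lay in the windows of 16 of 46 lysosomal genes (34.8%) and of 1112 of all 9279 (11.98%).

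Genes of lipid handling fell more often than they rose. Of 21 tested targets of the oxysterol receptors and of cholesterol export, 14 fell and 1 rose (median -0.32), and of 28 cholesterol synthesis genes 17 fell and 3 rose (median -0.17). Lpl, the lipoprotein lipase, went from 1255, 1286, 1232 and 1233 CPM in Parental 1 to 4 to 589, 606, 603 and 545 CPM in CDC50A KD 1 to 4 (-1.10 ± 0.0425), and Hmgcs1, an early enzyme of cholesterol synthesis, from 177 ± 1.93 to 125 ± 2.27 CPM (-0.49 ± 0.0446). Scap, the escort protein of the sterol regulatory factors, rose (0.39). Of 39 fatty acid genes, 17 fell, 4 rose and 18 were not called (median -0.07). Fabp5, a fatty acid binding protein of macrophages, was 336, 371, 359 and 366 CPM in Parental and 67.9, 74.5, 78.3 and 80.0 CPM in CDC50A KD (-2.25 ± 0.0510, adjusted p = 1.42e-18), the related Fabp4 went from 6.83 ± 0.661 to 0.599 ± 0.316 CPM (-3.45 ± 0.243), and the lipid droplet coat gene Plin2 fell (-0.92), whereas Fasn, the fatty acid synthase, rose (0.34).

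Chaperones and folding enzymes of the endoplasmic reticulum rose. Of 37 tested genes of the unfolded protein response, 24 rose and 3 fell, with a median of 0.26, and none of the rises reached 2-fold. Creld2 (ENSMUSG00000023272.4, mm10 chromosome 15, 88819646 to 88826683, plus strand), a folding factor released under endoplasmic reticulum stress, was 122, 136, 125 and 124 CPM in Parental 1 to 4 and 232, 232, 247 and 232 CPM in CDC50A KD 1 to 4 (0.89 ± 0.0430, adjusted p = 6.35e-13). Manf went from 255, 271, 259 and 257 to 433, 451, 454 and 416 CPM (0.75 ± 0.0462) and the co-chaperone Dnajc3 from 129.9, 130.2, 125 and 126 to 212, 224, 222 and 197 CPM (0.74 ± 0.0429). The groups were well separated for each of the 3 genes. Hspa5, or BiP, the main chaperone of the compartment, rose from 2358 ± 47.0 to 3075 ± 53.4 CPM (0.38 ± 0.0392), and the disulfide isomerase Pdia4 from 330.0 ± 8.01 to 525 ± 18.1 CPM (0.67 ± 0.0418). Hyou1 (0.60), Herpud1 (0.72) and the transcription factor Xbp1 (0.34) rose, and the sensor Ern1, or IRE1, fell from 29.1 ± 2.15 to 23.2 ± 1.35 CPM (-0.33 ± 0.0638). Direct tests placed 25 of the 37 genes higher and 2 lower in CDC50A KD than in ATP11A/C KD (13.4% and 12.7% of all tested genes). Against ORP5/8 KD, 31 were higher and none lower (29.4% and 27.5% of all tested genes).

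The promoters of Hspa5, Creld2 and Dnajc3 are shown for the endoplasmic reticulum stress element, CCAAT followed after 9 bases by CCACG on either strand, whose 2 boxes are in capitals. Each line holds the 250 bases before the start site from RefSeq (GRCm38.p6), at chr2:34771840-34772089, chr15:88819396-88819645 and chr14:118937682-118937931, all on the plus strand.
Hspa5: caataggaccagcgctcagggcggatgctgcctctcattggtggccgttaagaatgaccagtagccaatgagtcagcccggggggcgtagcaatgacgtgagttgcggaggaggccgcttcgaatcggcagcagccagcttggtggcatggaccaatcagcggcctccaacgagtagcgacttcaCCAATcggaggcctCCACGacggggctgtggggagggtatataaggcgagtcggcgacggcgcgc
Creld2: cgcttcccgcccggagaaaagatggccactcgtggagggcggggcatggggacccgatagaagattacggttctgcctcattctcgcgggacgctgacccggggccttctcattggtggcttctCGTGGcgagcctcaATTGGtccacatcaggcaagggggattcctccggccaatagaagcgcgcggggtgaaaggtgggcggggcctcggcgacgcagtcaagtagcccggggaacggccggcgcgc
Dnajc3: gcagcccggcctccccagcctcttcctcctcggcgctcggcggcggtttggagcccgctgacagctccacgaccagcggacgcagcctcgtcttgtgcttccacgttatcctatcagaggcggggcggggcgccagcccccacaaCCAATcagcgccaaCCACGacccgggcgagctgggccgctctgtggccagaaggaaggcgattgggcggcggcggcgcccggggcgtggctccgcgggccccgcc
In Creld2 the element reads on the reverse strand. It was found in 8 of 28 listed genes with a window (28.6%), which were Hspa5, Hsp90b1, Calr, Canx, Pdia6, Dnajc3, Creld2 and Syvn1, and in 13 of all 9279 tested genes with a window (0.140%). All 8 were among the 24 that rose, with log2 fold changes from 0.14 (Canx) to 0.89 (Creld2). The element was chosen for display after the expression values were known, and its first box is also counted by the CCAAT motif, which 22 of the 28 windows (78.6%) and 4046 of all 9279 (43.6%) hold.

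Genes of amino acid synthesis and uptake that ATF4 controls also rose for the most part. Of 36 tested, 24 rose and 3 fell (median 0.27). Psat1, an enzyme of serine synthesis, rose from 617 ± 22.7 to 767 ± 18.1 CPM (0.31 ± 0.0369), Slc1a4, a carrier of small neutral amino acids, from 15.1 ± 1.31 to 25.7 ± 2.10 CPM (0.77 ± 0.0786) and Shmt2, the mitochondrial serine hydroxymethyltransferase, from 546 ± 24.2 to 733 ± 16.9 CPM (0.42 ± 0.0503). Atf4 itself was 285 ± 4.22 and 296 ± 14.7 CPM (adjusted p = 0.228). The members that fell included 2 transcription factors induced by stress. Atf3 fell from 67.6, 75.3, 68.5 and 72.3 CPM in Parental 1 to 4 to 31.7, 31.7, 31.8 and 34.2 CPM in CDC50A KD 1 to 4 (-1.13 ± 0.0493, adjusted p = 1.25e-13), and Ddit3, or CHOP, from 14.1 ± 1.198 to 10.8 ± 1.41 CPM (-0.38 ± 0.0981). The C/EBP-ATF motif TGATGNAA lay in 10 of 31 windows of the list (32.3%) and in 258 of all 9279 (2.78%).

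The machinery that handles phosphatidylserine changed member by member. Of 32 tested genes of its synthesis and transfer, 19 fell and 3 rose (median -0.16). Besides Osbpl8, falls of at least 2-fold were called in the oxysterol-binding relative Osbpl10, from 3.06 ± 0.302 to 0.634 ± 0.265 CPM (-2.24 ± 0.233), and in Efr3b, an anchor of the phosphatidylinositol kinase complex at the plasma membrane, from 17.2 ± 0.754 to 4.89 ± 0.315 CPM (-1.82 ± 0.0887). Ptdss1, a phosphatidylserine synthase, rose slightly (0.16, adjusted p = 0.00511). Of 18 lipid scramblase genes, 11 fell and 3 rose (median -0.21). The scramblase genes Xk (106 and 16 counts over the 4 libraries of Parental and CDC50A KD, -2.73 ± 0.445), Xkr5 (-2.24) and Plscr4 (-1.90), all under 3 CPM, fell most, and Ano6, the calcium-activated scramblase of the plasma membrane, fell from 159 ± 3.83 to 133 ± 2.82 CPM (-0.25 ± 0.0473).

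Receptors and bridging proteins for phosphatidylserine moved in both directions, with 13 of 31 tested genes lower and 7 higher (median -0.09). Axl, a receptor for Gas6, fell with its ligand, from 3.30 ± 0.324 to 0.904 ± 0.218 CPM (-1.85 ± 0.200). Dock1, a guanine nucleotide exchange factor of engulfment, went from 57.5, 57.5, 58.7 and 56.3 to 28.6, 29.2, 28.9 and 27.1 CPM (-1.02 ± 0.0448, adjusted p = 1.55e-13). Mfge8, a secreted bridge to integrins, rose from 57.5 ± 3.58 to 90.01 ± 5.29 CPM (0.64 ± 0.0632), as did one of those integrin chains, Itgb5 (0.74). The macrophage receptors Trem2 (-0.59) and Cd300a (-0.58) fell. For LC3-associated phagocytosis, the attachment of LC3 to the phagosome membrane, 12 of 33 tested genes fell and 8 rose (median -0.05). The shares over all genes tested were 26.1% and 24.3%. Map1lc3b, which encodes LC3B, was 65.2, 66.6, 66.1 and 63.5 CPM in Parental 1 to 4 and 108, 106, 108 and 111 CPM in CDC50A KD 1 to 4 (0.73 ± 0.0387, adjusted p = 2.63e-12). It was also higher than in ATP11A/C KD (83.8 ± 1.65 CPM, log2 fold change 0.37, adjusted p = 1.75e-06) and ORP5/8 KD (83.1 ± 3.49 CPM, 0.38, adjusted p = 3.95e-08). Atg16l1, part of the complex that attaches LC3 to lipids, fell from 35.5 ± 3.42 to 23.2 ± 0.792 CPM (-0.61 ± 0.0911), and Tecpr1, which can serve in such a complex at damaged lysosomes, from 36.4 ± 3.06 to 18.1 ± 0.833 CPM (-1.003 ± 0.0659). Cybb, the catalytic subunit of the phagocyte NADPH oxidase, fell slightly (-0.17, adjusted p = 0.00266), and Rubcn, the regulator that directs the process, was 39.2 ± 1.47 and 38.01 ± 0.420 CPM with no call (adjusted p = 0.547).

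Genes of DNA replication and of cytosolic ribosomal proteins rose by small amounts. Of 46 tested genes of DNA replication and S phase, 24 rose and 3 fell (median 0.14), among them the flap endonuclease Fen1 (0.36 ± 0.0397) and the helicase subunit Mcm5 (0.30 ± 0.0391). Of 40 genes of mitosis, 11 rose and 8 fell (median 0.02), near the shares over all genes tested (24.3% and 26.1%). The E2F motif TTTNNCGC lay in 16 of 38 windows of the S phase list (42.1%) and in 958 of all 9279 (10.3%). Cytosolic ribosomal protein genes, a list added after the values were seen, rose in 80 of 81 tested cases (median 0.39). Of the 81, 67 and 76 were higher than in ATP11A/C KD and ORP5/8 KD (13.4% and 29.4% of all tested genes), with none lower. Rpsa went from 2151, 2219.8, 2049 and 2083 CPM in Parental 1 to 4 to 2966, 2919, 3039 and 2962 CPM in CDC50A KD 1 to 4 (0.48 ± 0.0486). Many have processed pseudogenes with which reads can be shared, and the part of such sharing in these rises was not tested. Over all 864 tested processed pseudogenes, 208 rose and 59 fell, beside 24.3% and 26.1% of all genes tested. Of 13 mitochondrially encoded genes, 10 rose and none fell (median 0.62). mt-Cytb, a subunit of respiratory complex III, was 1078 to 1311 CPM in Parental and 1766 to 2190.2 CPM in CDC50A KD (0.71 ± 0.0768), and mt-Nd3, of complex I, was 5.11 to 6.19 and 11.2 to 18.3 CPM (1.30 ± 0.197). The largest rise in fold was in mt-Co2, at 33.7 to 88.5 and 68.0 to 191 CPM, whose libraries overlapped (1.44 ± 0.303). Libraries of the 2 groups did not overlap for 7 of the 13, near the 48.0% over all genes tested.

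Prostaglandin genes other than Hpgd changed little by comparison. Of 18 tested genes for eicosanoid enzymes and receptors, 4 rose and 7 fell, beside 24.3% and 26.1% over all genes tested. Ptgs1, the constitutive cyclooxygenase, rose from 50.4 ± 1.99 to 71.0 ± 1.53 CPM (0.50 ± 0.0478), Hpgds, the haematopoietic prostaglandin D synthase, fell from 110.4 ± 5.34 to 61.1 ± 3.78 CPM (-0.86 ± 0.0731) and Ptgir, the prostacyclin receptor, from 10.7 ± 1.08 to 4.83 ± 0.902 CPM (-1.14 ± 0.112). Chemotactic receptors split into 11 that fell and 6 that rose of 19 tested (median -0.46). Ptafr, the receptor for platelet-activating factor, fell (-0.96), as did the ATP-gated channel P2rx4 (-1.16), beside the rises of P2ry12 and Ltb4r1 above. Of 14 tested genes of class II antigen presentation, 5 rose and 2 fell (4 without CDC50A KD 4). The invariant chain Cd74 rose from 211, 224, 206 and 241 CPM in Parental 1 to 4 to 268, 289, 311 and 346 CPM in CDC50A KD 1 to 4 (0.46 ± 0.0852), and H2-DMa, which loads peptide, from 5.02 ± 0.232 to 7.52 ± 0.201 CPM (0.58 ± 0.0924).

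Adhesion and cytoskeletal genes moved in both directions, with 22 of 46 lower and 13 higher (median -0.09). The integrin chain Itgal rose from 19.4 ± 1.48 to 38.2 ± 2.10 CPM (0.98 ± 0.0613) while its partner Itgb2 fell, and of the tetraspanins Cd81 rose (0.75 ± 0.0436) and Cd9 fell (-0.67 ± 0.0413). Among iron and antioxidant genes, 11 of 38 rose and 13 fell, beside 24.3% and 26.1% over all genes tested. Their log2 fold changes ran from -1.48 to 1.26 (median -0.06). The iron exporter Slc40a1, or ferroportin, went from 6.49 ± 0.547 to 2.31 ± 0.297 CPM (-1.48 ± 0.154), the divalent metal transporter of phagosomes Slc11a1 from 79.2 ± 1.08 to 40.8 ± 2.68 CPM (-0.96 ± 0.0526) and the haem oxygenase Hmox1 from 139 ± 8.52 to 82.4 ± 5.66 CPM (-0.75 ± 0.0637). All 3 fell.

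Of 32 tested p53 targets, 15 fell and 6 rose (median -0.23). Against ATP11A/C KD, 17 were lower and 1 higher (12.7% and 13.4% of all tested genes). Against ORP5/8 KD, 12 were lower and 13 higher (27.5% and 29.4% of all tested genes). The kinase gene Plk2 fell from 25.1, 28.5, 27.0 and 30.1 CPM in Parental 1 to 4 to 6.90, 6.92, 7.20 and 7.42 CPM in CDC50A KD 1 to 4 (-1.96 ± 0.0804, adjusted p = 5.13e-14). Mdm2, the ubiquitin ligase of p53, fell (-0.51 ± 0.0504), as did the cell cycle inhibitor Cdkn1a (-0.45 ± 0.0506), while Trp53 itself rose from 262 ± 5.91 to 325 ± 11.4 CPM (0.31 ± 0.0422). Of 28 apoptosis regulators, 15 fell and 4 rose (median -0.22). The survival factor Bcl2 fell from 17.6 ± 0.997 to 9.79 ± 1.18 CPM (-0.85 ± 0.0877), and the pore-forming effectors of lytic death Gsdmd (-0.62) and Mlkl (-0.63) fell, whereas Ripk3, the kinase that activates the latter, rose (0.62). Of 41 glycolysis and hypoxia genes, 19 fell and 8 rose, the hexokinase Hk3 (-1.08 ± 0.0573) and the hypoxia target Vegfa (-0.56 ± 0.0773) among the falls. The 8 rises were 5 without CDC50A KD 3, CDC50A KD 4 or Parental 3. Of 35 immediate-early and feedback genes, 10 rose and 7 fell, near the shares over all genes tested (24.3% and 26.1%). The phosphatases Dusp4 (-1.51 ± 0.0821) and Dusp2 (0.87 ± 0.0954) changed in opposite directions. Of 33 genes of canonical autophagy, 13 fell and 2 rose, the transcription factor Mitf with the steepest fall (-0.69 ± 0.0610) and its relative Tfe3 as one of the rises (0.23 ± 0.0448), of which 1 was left without Parental 3 or any library of CDC50A KD. Of 34 genes of glycerophospholipid remodelling, 13 fell and 8 rose (5 without CDC50A KD 3), beside 26.1% and 24.3% over all genes tested. Falls included the phospholipase D genes Pld1 (-1.01), Pld2 (-0.95) and Pld3 (-0.73) and the CDP-diacylglycerol synthase Cds1 (-0.88).

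**Figure D4:**
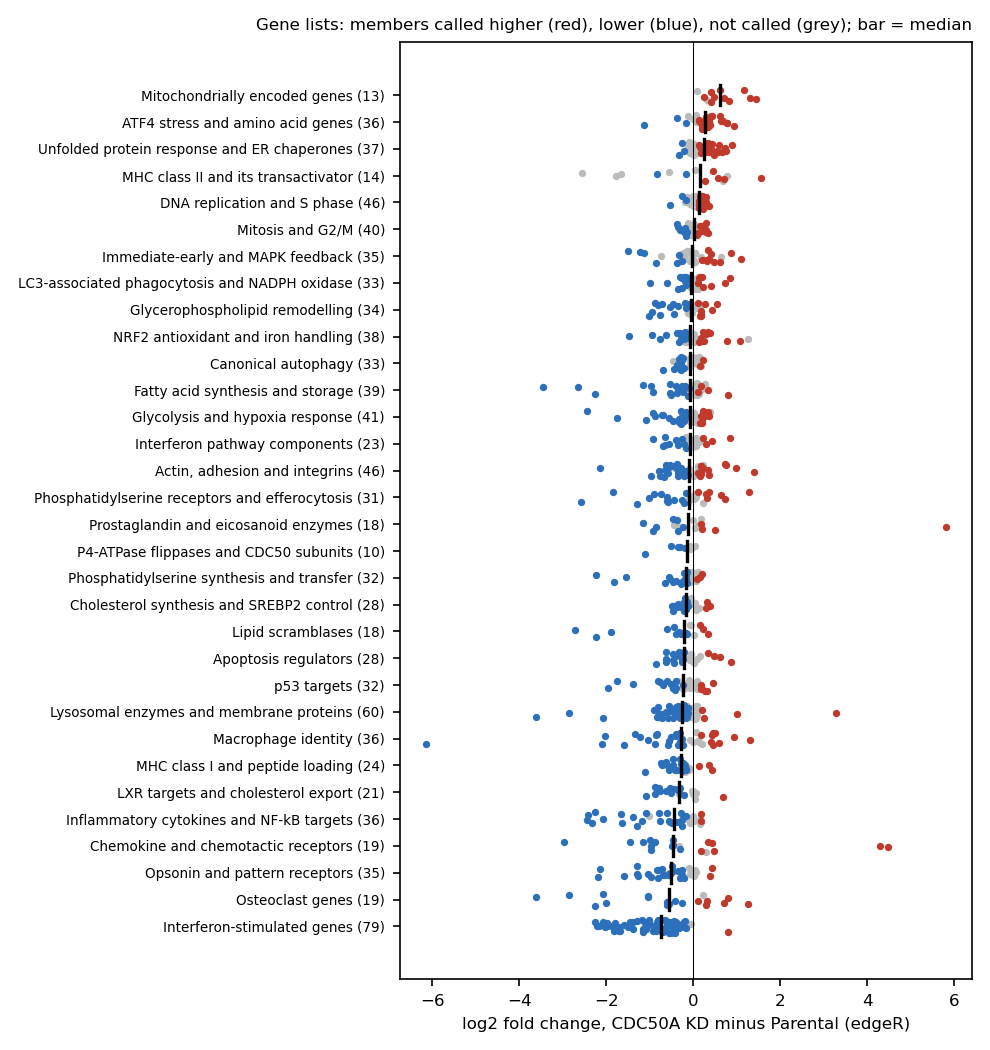
Log2 fold change CDC50A KD minus Parental of each tested member (point) of 32 gene lists, with the number of members tested in brackets, coloured by call, and the list's median (bar). Lists are ordered by median, from the interferon-stimulated genes at the bottom (-0.74) to the mitochondrially encoded genes at the top (0.62); vertical scatter within a row has no meaning.

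Against each of the other groups in turn, 957 genes were higher in CDC50A KD (7.30%) and 953 lower (7.27%). The number of higher genes was 616 without CDC50A KD 1 and 571 without CDC50A KD 3. The difference reached 2-fold against every group for 10 of the higher and 83 of the lower genes. Of these 10, Oosp2 stood furthest apart, with a smallest log2 fold change of 8.49. The low gene Ltb4r1, described above, followed with 3.70, then Cav1 with 3.19 and Btla with 1.73. Hpgd, Chst1, Igf2bp1 and Trp53i11 were among the 957 higher genes but not the 10, with smallest log2 fold changes of 0.77, 0.81, 0.54 and 0.72. Hpgd stood at 56.4 ± 3.48 CPM against 33.1 ± 3.83 in ATP11A/C KD and 8.48 ± 0.769 in ORP5/8 KD (log2 fold changes 0.77 and 2.73). Slpi, a secreted inhibitor of neutrophil proteases, was 13.8, 14.1, 13.0 and 15.9 CPM in CDC50A KD 1 to 4, 7.12 to 8.00 CPM in Parental, 5.79 to 8.98 in ATP11A/C KD and 3.03 to 3.496 in ORP5/8 KD, and no library of another group reached the lowest of CDC50A KD (log2 fold changes 0.94, 0.91 and 2.09). Runx3, Ltb and Bmyc had their highest level in CDC50A KD in the same way, with Bmyc, a relative of Myc, at 32.8 ± 1.97 CPM against 14.4 ± 3.18 in Parental.

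On the lower side, Pde1b, a calmodulin-dependent phosphodiesterase, was 7.80, 6.35, 6.65 and 9.91 CPM in CDC50A KD 1 to 4 and 18.4, 14.1, 21.96 and 21.7 CPM in Parental 1 to 4, with 18.6 ± 1.76 CPM in ATP11A/C KD and 21.7 ± 2.82 CPM in ORP5/8 KD (log2 fold changes -1.29, -1.26 and -1.48). Kcnj2, an inward rectifier potassium channel, was 21.5, 20.8, 20.3 and 21.97 CPM in CDC50A KD 1 to 4 and 54.5 to 65.8, 36.2 to 44.6 and 36.2 to 49.5 CPM in the other groups (-1.51, -0.91 and -0.97). Ppic, a cyclophilin of the secretory pathway (-1.14, -1.10 and -0.93), Ints6l, a relative of an Integrator subunit (-1.14, -0.99 and -1.07), Ankrd16 (-1.18, -1.24 and -1.43) and Metap1d (-0.90, -0.97 and -1.21) were lower than in each group as well. Lilrb4a was also below both other knockdowns (-0.999 and -1.24).

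Some RNAs tied to the nucleus were lower in CDC50A KD than in every other group. Rsrp1, which encodes a protein rich in arginine and serine, was 127, 95.0, 157 and 144 CPM in Parental 1 to 4 and 54.9, 45.2, 49.1 and 58.3 CPM in CDC50A KD 1 to 4 (log2 fold changes -1.33, -1.18 and -1.62 against Parental, ATP11A/C KD and ORP5/8 KD). Neat1, the long noncoding RNA of paraspeckles, was 134, 96.0, 178 and 166 CPM in Parental, 40.1, 30.8, 30.4 and 47.2 CPM in CDC50A KD, and 135 ± 38.8 and 219 ± 46.6 CPM in ATP11A/C KD and ORP5/8 KD (-1.94 ± 0.212 against Parental, adjusted p = 1.98e-07). Malat1, a long noncoding RNA of nuclear speckles, was 106, 101, 141 and 105 CPM in Parental 1 to 4 and 67.1, 45.7, 66.7 and 47.4 CPM in CDC50A KD 1 to 4 (-0.99 ± 0.255, adjusted p = 0.0028). Parental 2 was the lowest Parental library for all 3 RNAs and still above the highest library of CDC50A KD. Among small nucleolar RNA host genes, 11 of 14 tested fell and none rose (median -0.71). Of the 14, 12 and 11 were below ATP11A/C KD and ORP5/8 KD (12.7% and 27.5% of all tested genes). Over all 693 tested long noncoding RNAs, 41 rose and 165 fell. A fall was no more frequent among them than over all genes tested (26.1%), while a rise was less frequent (24.3% over all genes). The nuclear RNAs and host genes were listed after their values had been seen.

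**Figure D5:**
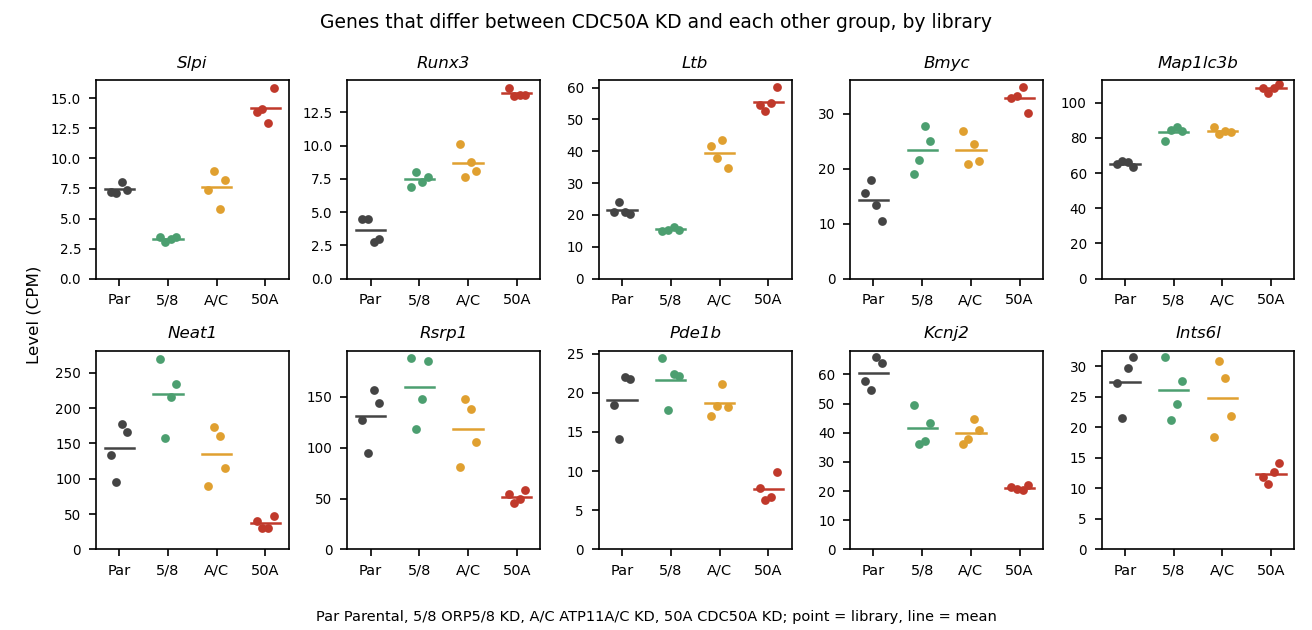
Level in CPM of 10 genes that differed between CDC50A KD and each other group, in each of the 16 libraries (points) with the group mean (line), every axis starting at 0. The CDC50A KD libraries lie above all others for Slpi, Runx3, Ltb, Bmyc and Map1lc3b and below all others for Neat1, Rsrp1, Pde1b, Kcnj2 and Ints6l.

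CDC50A KD and ATP11A/C KD had fewer genes called between them (1762 higher and 1665 lower in CDC50A KD) than CDC50A KD and ORP5/8 KD (3848 and 3603). In a principal component analysis of log2 CPM, the first component (30.8% of the variance) separated ORP5/8 KD from the rest and the second (28.5%) separated Parental from the 3 knockdowns, and the CDC50A KD libraries lay nearest those of ATP11A/C KD. Because all comparisons with Parental share its 4 libraries, CDC50A KD is placed among the knockdowns by the direct tests. These tests in turn share the 4 libraries of CDC50A KD, as do the genes that differ from every other group.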

How the data were processed

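Poly(A) RNA sequencing of 16 RAW264.7 libraries was deposited as 1 table of gene counts. Per the labels' protocols, stranded libraries were made from 500 ng of total RNA. Per the submitters' processing notes, the tools included Trim Galore 0.5.0, STAR 2.7.5a, Picard and RSEM with the mm10 genome, and the roles and order of these tools are not given in the sources used here. The authors' values are estimated counts from RSEM, so reads that fit several genes are shared out, and 4.64% of the values carry decimals. They were rounded to whole counts. The 92 ERCC spike-in records, which sum to 0, were dropped. Groups follow the sample labels.

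Genes were filtered with filterByExpr (minimum count 10, 13107 genes kept), scaled by TMM and tested with edgeR 4.0.16 (R 4.3.3) by quasi-likelihood over all 16 libraries with group as the only term. Adjusted p is by Benjamini-Hochberg over the genes tested. The fit was tested on simulated data. All replicate pairs differed by more than sampling noise. No pairing by replicate number was used in the main fit. Alternatives were other scalings, filters, a fit of the pair alone, the Wald test of DESeq2 1.42.0, the replicate number as a block and each library left out. Promoter motifs were sought on both strands in RefSeq windows (GRCm38.p6), which 9279 of the 13095 tested symbols matched. In all, 10 motifs were sought in each of several lists, and most of these pairs are not shown.

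The members and gene lists were chosen with earlier results of these data known. Genes named, apart from a few that are not reported here, are the targets, the 15 largest rises and 15 largest falls among called protein-coding genes that reach 10 CPM in the higher group and 10 counts over the lower without overlap, the 6 largest gains and losses in CPM, the 8 and 8 genes within the same limits set furthest apart from every other group, and up to 4 called members a list with the smallest adjusted p. Other genes named were chosen after their values were seen, as were the promoters and the stress element shown.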

Additional observations from a re-analysis of the deposited data

Results flagged for a closer look

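In some groups of 4 libraries, 1 library stood far from the other 3. The gap to its nearest neighbour was set against the group's whole range for each gene named, in Parental and in CDC50A KD, by Dixon's test at the 95% level. Of 394 such groups of values, 19 were flagged, and chance flags about 1 in 20.

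CDC50A KD 4 was flagged for 5 genes. It was the highest for Atf3 (34.2 CPM, the others 31.7 to 31.8), Chst1 (104.2 CPM, the others 82.8 to 86.1) and Ddit3 (12.9 CPM, the others 9.83 to 10.3), and the lowest for Ctsk (0.153 CPM, the others 0.245 to 0.263) and Il1rn (14.8 CPM, the others 18.0 to 18.4). CDC50A KD 2 was highest for Cds1 (10.5 CPM, the others 8.15 to 8.52) and Pdia3 (1719 CPM, the others 1550 to 1569) and lowest for Trem2 (179 CPM, the others 199 to 201) and Srsf4 (90.1 CPM, the others 92.5 to 92.9). CDC50A KD 3 was highest for Creld2 (247 CPM, the others 231.5 to 232.2). CDC50A KD 1 was lowest for Herpud1 (147.7 CPM, the others 152 to 153) and highest for Runx3 (14.4 CPM, the others 13.7 to 13.8).

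Among the Parental libraries, Parental 2 was highest for Creld2 (136 CPM, the others 122 to 125) and Hspa5 (2429 CPM, the others 2335). Parental 3 was highest for Malat1 (141 CPM, the others 101 to 106) and Osbpl8 (346 CPM, the others 333 to 335) and lowest for Plxdc1 (13.6 CPM, the others 15.3 to 15.5). Parental 1 was highest for Slc20a2 (39.8 CPM, the others 35.0 to 35.4) and Parental 4 lowest for Slfn8 (51.2 CPM, the others 52.6 to 52.9). For each of these genes that was called, the call held without the flagged library.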

How the results depend on the processing

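The counts of genes called against Parental stayed within 1.5 times the values reported under every alternative run: 2860 to 3376 higher and 3296 to 3554 lower over the scalings, filters, the fit of CDC50A KD and Parental alone and the DESeq2 Wald test, and 2720 to 3174 higher and 3089 to 3507 lower with each library left out. With the replicate number as a block (replicate block), 3121 genes were higher and 3362 lower. Same-numbered libraries of the 2 groups correlated at 0.00746 to 0.105 in their deviations from the group means, and only CDC50A KD 2 and CDC50A KD 4 correlated best with the Parental library of their own number. Genes called higher and at least 2-fold numbered 118 under a filter of 1 CPM in 4 libraries, which tests fewer low genes, against 211. The number of genes higher than in each other group ranged over leave-one-out fits from 571 to 905, against 957. The difference in mitochondrially encoded share stayed between 0.405 and 0.518 percentage points with each library left out, where 3 against 4 libraries allow no exact p under 0.0571.

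Among single genes, 3630 of 3638 alternative values kept their direction and side of the threshold. Pkm and Canx lost their calls under 3 and 4 alternatives. Slc20a2, not called, had values from -0.0947 (without CDC50A KD 3) to 0.000894 (without Parental 1), against -0.06. The median of the 3 tested dendritic cell markers, 0.67, was -0.19 under the filter of 1 CPM, which leaves fewer of them. Of 1979 values for gene lists, 53 moved beyond the limits set. The depth of 24020891 counts or more per library leaves genes near 0.1 CPM with a few counts each, so single low genes such as Ltb4r1, Xk and Maf carry wide errors.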

Other observations

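Regulators of G-protein signalling, a family that shortens the signal of activated G proteins, were listed after their values were seen. Of 10 tested, 5 fell, each at least 2-fold, and 2 rose, or 1 without CDC50A KD 2, CDC50A KD 3, CDC50A KD 4 or Parental 3 (median -0.70). Rgs2 fell from 99.3 ± 6.45 to 40.1 ± 0.735 CPM (-1.31 ± 0.0580), Rgs1 from 54.2 ± 4.06 to 11.1 ± 2.28 CPM (-2.27 ± 0.128) and Rgs18 from 5.19 ± 0.438 to 1.39 ± 0.196 CPM (-1.88 ± 0.129).

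Genes for SR proteins, CLK kinases and speckle proteins, also listed after their values were seen, moved in both directions. Of 31 tested, 12 fell and 7 rose (26.1% and 24.3% of all genes tested), and the 7 were 4 without CDC50A KD 1, CDC50A KD 2, CDC50A KD 3 or Parental 4. Clk1, a kinase of SR proteins, was 37.5, 34.4, 44.8 and 41.9 CPM in Parental 1 to 4 and 24.1, 20.3, 21.5 and 27.3 CPM in CDC50A KD 1 to 4 (-0.76 ± 0.125), and the cyclin Ccnl2 was 66.3, 50.4, 78.4 and 77.6 and 34.1, 30.5, 29.8 and 35.7 CPM (-1.06 ± 0.148). Parental 2 was the lowest Parental library for both, as for Neat1 and Rsrp1. The splicing factor Srsf4 rose (0.36 ± 0.0469). Firre, a nuclear long noncoding RNA, fell from 23.9 ± 6.69 to 6.00 ± 1.35 CPM (-1.97 ± 0.231), and the host gene Zfas1 from 19.0 ± 2.53 to 9.88 ± 1.67 CPM (-0.93 ± 0.128).

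Ighm, the heavy chain of immunoglobulin M and the only tested marker of lymphocytes, was 97.7, 101, 96.8 and 104 CPM in Parental 1 to 4 and 185, 209, 200.3 and 204 CPM in CDC50A KD 1 to 4 (0.996 ± 0.0441, adjusted p = 1.58e-13), with no count of Ms4a1 in any of the 8 libraries.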
